A study of Mus musculus with 4 samples.

Results

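The Iroquois (Irx) and Zic genes encode transcription factors that pattern the early nervous system, and 9 of them, Irx1, Irx2, Irx3, Irx5, Irx6, Zic1, Zic2, Zic4 and Zic5, were followed over 4 arrays of mouse cells. They were chosen by name, each with at least 1 probe set that carries a single gene symbol. They have 11 probe sets among 21789 with 1 symbol, and are 9 of 19938 genes measured in all. Irx4, the remaining Irx gene, is described below as a neighbour. The arrays profile embryoid bodies (EBs), which are aggregates of differentiating embryonic stem (ES) cells, at day 7 with bexarotene, with retinoic acid (RA) or untreated, and undifferentiated ES cells at day 0. The ES cells are of the D3 line according to the article, no genetic change is given for any group, and the EBs were formed in hanging drops and kept on in suspension. Bexarotene, a synthetic agonist of the retinoid X receptors (RXRs), was used at 50 nM. RA, which in the body binds the retinoic acid receptors (RARs), was used at 5 µM according to the sample labels and at a lower, nanomolar dose according to the article, so the doses of the ligands differ and their values are set side by side only. Each condition has 1 array, so no test was possible, and a difference is one between a pair of arrays.

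Irx proteins carry a homeodomain of the TALE class and bind DNA. In vertebrates they help to divide the neural plate and neural tube into territories, and in the chick Irx3 and the forebrain gene Six3 repress each other. The Zic proteins carry zinc fingers related to those of the Gli factors of Hedgehog signalling, and are known from the neural plate border, the dorsal neural tube and the neural crest. In the mouse the Irx genes lie in a pair of clusters, with Irx1, Irx2 and Irx4 on chromosome 13 and Irx3, Irx5 and Irx6 on chromosome 8, while Zic1 and Zic4 stand beside each other on chromosome 9 and Zic2 and Zic5 on chromosome 14.

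The values are log2 signals that the authors normalized together. Higher or lower below means a difference past 1.5-fold where a count is given, or 0.58 on the log2 scale, which is the threshold of the article. To give a scale for small differences, bexarotene minus RA was computed for probe sets of similar signal, and its robust SD was between 0.10 and 0.13 for the members. It is called the spread here. It comes from the most similar pair of arrays and says nothing of the variation between cultures. Signals of different genes come from different probes and are not compared with each other. The labels of the ES cell and untreated EB arrays fit the markers. Untreated EBs had 7 of 8 pluripotency markers more than 1.5-fold below ES cells, where 8.52% of all genes were lower. Zfp42 was at -3.92 on the log2 scale. This does not check which EB array received which ligand. In aggregates of mixed cells, more cells that express a gene and more RNA per cell cannot be told apart.

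With bexarotene, 2 of the 9 genes lay more than 1.5-fold above their value in untreated EBs and 0 were lower, where 1.48% of all genes were higher and 2.15% lower. These were Zic1, at 1.98-fold, and Irx2, at 1.56-fold. With RA, 1 of the 9, again Zic1 (1.94-fold), was higher and 0 were lower, against 2.07% and 2.22% of all genes. The median log2 difference of the members was 0.27 with bexarotene and 0.22 with RA, and that of all genes was -0.01 with bexarotene and 0.00 with RA. Both comparisons use the same untreated array, so their likeness is not a finding.

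**Figure D1:**
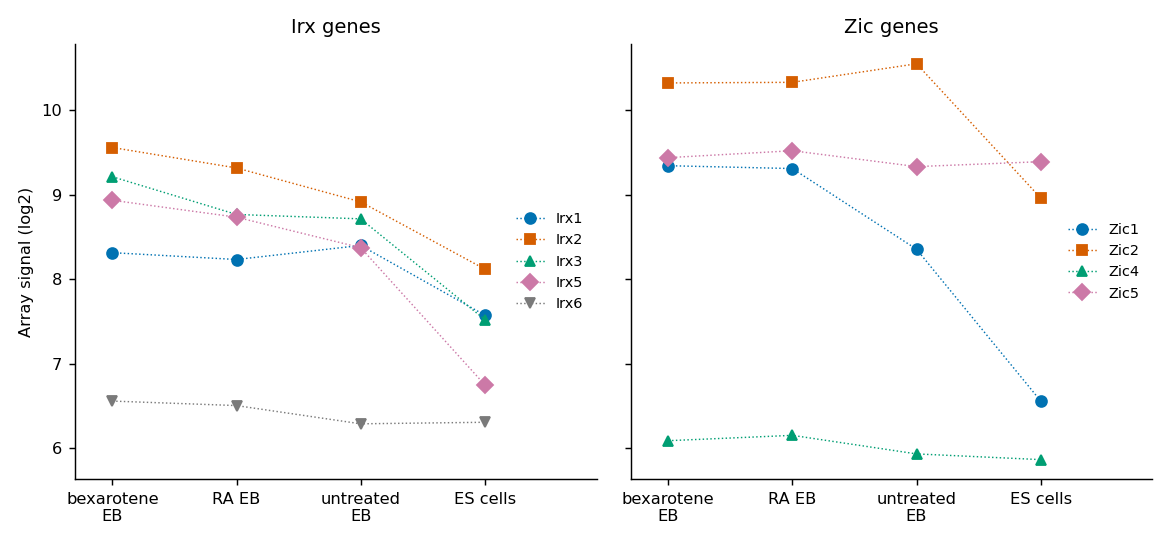
Log2 array signal (y axis) of 5 Irx and 4 Zic genes in bexarotene EBs, RA EBs, untreated EBs and ES cells (x axis), with 1 point per array and no replicates. Zic1 stands at 9.34 with bexarotene and 9.31 with RA against 8.36 in untreated EBs and 6.56 in ES cells, while Irx6, Zic4 and Zic5 are nearly level.

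Zic1, which is needed for the cerebellum and marks dorsal neural tissue, had the largest difference of the members in both ligand comparisons. Its log2 signal (probe set 10595695) was 9.34 in bexarotene EBs, 9.31 in RA EBs, 8.36 in untreated EBs and 6.56 in ES cells. The ligand-treated EBs thus formed a high pair only 0.03 apart, within the spread of 0.12, and the ES cell array was lowest. The difference from untreated EBs was 0.99 with bexarotene and 0.95 with RA, each more than 8 times the spread. It ranked 103 from the highest of 19938 genes with bexarotene and 146 with RA. Against ES cells, Zic1 was 6.89-fold higher in bexarotene EBs, 6.73-fold in RA EBs and 3.47-fold in untreated EBs.

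Zic4, whose loss together with Zic1 causes cerebellar malformation, did not follow Zic1. Its log2 signal was 6.09 in bexarotene EBs, 6.16 in RA EBs, 5.94 in untreated EBs and 5.87 in ES cells, below the array median of all probe sets on each array. The differences from untreated EBs were 0.16 with bexarotene and 0.22 with RA, or 1.28 and 1.79 times the spread. According to RefSeq (GRCm38.p6) the pair are read in opposite directions from start sites 3204 bases apart. The promoters of Zic1, Zic4 and Irx2 are shown because they set the divergent pair and the other gene past 1.5-fold with bexarotene next to each other. Each runs 5′ to 3′ from 250 bases before the start site, 300 in all, and capitals mark the hexamers AGGTCA and AGTTCA, forms of the half-site that RAR and RXR bind, searched on both strands.

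Zic1, chr9:91365719-91366018, minus strand: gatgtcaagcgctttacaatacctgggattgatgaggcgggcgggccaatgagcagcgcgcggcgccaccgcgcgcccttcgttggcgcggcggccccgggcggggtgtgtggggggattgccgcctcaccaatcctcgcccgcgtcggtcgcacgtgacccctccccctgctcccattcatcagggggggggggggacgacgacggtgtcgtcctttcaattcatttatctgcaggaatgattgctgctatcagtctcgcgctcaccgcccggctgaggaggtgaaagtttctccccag
Zic4, chr9:91368722-91369021, plus strand: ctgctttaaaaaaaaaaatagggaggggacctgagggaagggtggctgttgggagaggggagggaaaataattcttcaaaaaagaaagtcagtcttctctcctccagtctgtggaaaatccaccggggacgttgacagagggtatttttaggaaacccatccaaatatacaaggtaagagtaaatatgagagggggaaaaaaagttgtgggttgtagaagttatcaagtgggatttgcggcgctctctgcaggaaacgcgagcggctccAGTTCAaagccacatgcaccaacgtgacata
Irx2, chr13:72628570-72628869, plus strand: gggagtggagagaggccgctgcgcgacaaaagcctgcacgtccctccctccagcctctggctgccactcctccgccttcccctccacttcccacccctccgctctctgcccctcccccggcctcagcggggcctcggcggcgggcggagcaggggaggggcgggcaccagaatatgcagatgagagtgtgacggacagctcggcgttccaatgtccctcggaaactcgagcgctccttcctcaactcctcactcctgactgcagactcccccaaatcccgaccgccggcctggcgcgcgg

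RefSeq promoters were given for 5 of the 9 members. AGGTCA was found in 1 of them, Zic5, and AGTTCA in 1, Zic4, while 16.3% and 14.0% of all 32851 promoters hold these hexamers. The Zic1, Irx2 and Irx3 windows hold neither, which concerns these hexamers and these 300 bases only. Other forms of the half-site were not searched, so the windows cannot be said to lack one. The Zic1 window is 65.3% G and C with 31 CpG dinucleotides and that of Irx2 is 69.0% with 25, whereas Zic4 has 46.0% and 8. The medians of all promoters are 52.7% and 7.

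Zic2, the gene altered in a form of holoprosencephaly and active already in the epiblast, had the opposite sign to Zic1 in the ligand comparisons. Its log2 signal was 10.32 in bexarotene EBs, 10.33 in RA EBs, 10.55 in untreated EBs and 8.96 in ES cells. The untreated array was thus the highest and that of ES cells the lowest, with the ligand arrays 0.01 apart. The differences from untreated EBs were -0.23 with bexarotene and -0.22 with RA, which are 2.34 and 2.27 times the spread and not past the threshold. Against ES cells it was 2.57-fold higher in bexarotene EBs, 2.58-fold in RA EBs and 3.01-fold in untreated EBs.

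Zic5, the neighbour of Zic2, which acts in neural crest and neural tube closure, was level over the arrays, but its probe sets need care. By the rule that a gene stands by its brightest probe set, its log2 signal was 9.44 in bexarotene EBs, 9.52 in RA EBs, 9.33 in untreated EBs and 9.39 in ES cells. These are within 0.19 of each other, and no EB array was past 1.5-fold from ES cells. That probe set, 10376241, lies in identifier order among genes of chromosome 11. Of the 25 genes with a known chromosome among the 15 identifiers on each side, 24 are on chromosome 11 and 0 on chromosome 14, where Zic5 is. The other probe set, 10422504, lies among genes of chromosome 14, at 18 of 24, and read 8.33 in bexarotene EBs, 8.19 in RA EBs, 8.32 in untreated EBs and 8.20 in ES cells. The probe sets differ in sign for RA against untreated EBs, at 0.19 and -0.13, so no direction can be given for Zic5. Zic4 has a second probe set of this kind (10554140), with 23 of 24 neighbours on chromosome 7, which read 5.50 in bexarotene EBs, 5.61 in RA EBs, 5.52 in untreated EBs and 5.48 in ES cells. What these probes detect was not tested.

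**Figure D2:**
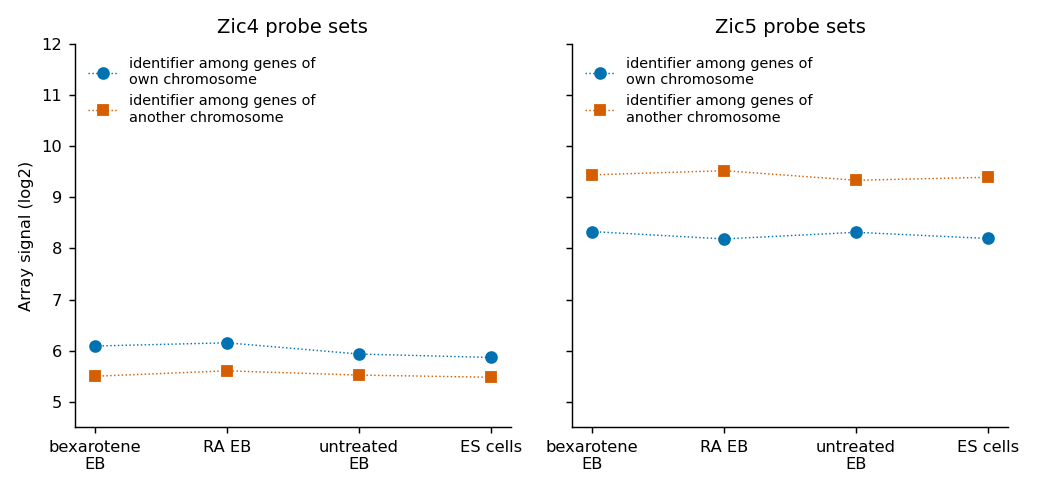
Log2 signal (y axis) of both probe sets of Zic4 and of Zic5 in bexarotene EBs, RA EBs, untreated EBs and ES cells (x axis), 1 point per array. Circles are probe sets whose identifiers lie among genes of the gene's own chromosome and squares those among genes of another chromosome. No probe set ranged over more than 0.29.

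Among the Irx genes, Irx2, Irx3 and Irx5 differed most with bexarotene. Irx2, expressed in neural and many other epithelia, had a log2 signal (probe set 10406005) of 9.56 in bexarotene EBs, 9.32 in RA EBs, 8.92 in untreated EBs and 8.12 in ES cells. The bexarotene array was highest, the RA array stood between it and the untreated array, and each step was larger than the spread of 0.11. The difference from untreated EBs was 0.64 with bexarotene, or 5.90 times the spread, and 0.40 with RA. Between the ligands it was 0.24, short of the threshold.

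Irx5, which acts in the retina and heart and shares a cluster with Irx3, read 8.94 in bexarotene EBs, 8.74 in RA EBs, 8.38 in untreated EBs and 6.75 in ES cells (probe set 10573910). This is the order of Irx2, with ES cells further below. The difference from untreated EBs was 0.56 with bexarotene and 0.36 with RA, so that it was just short of the threshold with bexarotene. After quantile normalization or loess it was 0.63 or 0.61 with bexarotene, and the count of higher members was then 3 in place of 2. The share of all genes was not computed under these settings.

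Irx3, which marks progenitors of the intermediate and ventral neural tube, was the member that differed most between the ligands. Its log2 signal (probe set 10580577) was 9.21 in bexarotene EBs, 8.77 in RA EBs, 8.72 in untreated EBs and 7.52 in ES cells. Only the bexarotene array stood above the untreated array by more than the spread of 0.12, the RA array being 0.05 from it. The difference was 0.50 between bexarotene and untreated EBs and 0.45 between bexarotene and RA EBs, neither past the threshold. For bexarotene minus RA it ranked 95 from the highest of 19938 genes. Irx3os, a noncoding gene named after Irx3 that was added after its values were seen, read 7.16 in bexarotene EBs, 7.15 in RA EBs, 7.11 in untreated EBs and 6.94 in ES cells.

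Irx1 and Irx6 differed little among the EBs. Irx1, the neighbour of Irx2, read 8.32 in bexarotene EBs, 8.24 in RA EBs, 8.40 in untreated EBs and 7.58 in ES cells, so the untreated array was the highest and the EB arrays lay within 0.17 of each other. Irx6, which acts in retinal neurons, read 6.56 in bexarotene EBs, 6.51 in RA EBs, 6.29 in untreated EBs and 6.31 in ES cells, below the array median on each array. Its difference from untreated EBs was 0.27 with bexarotene and 0.22 with RA, or 2.30 and 1.85 times the spread.

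**Figure D3:**
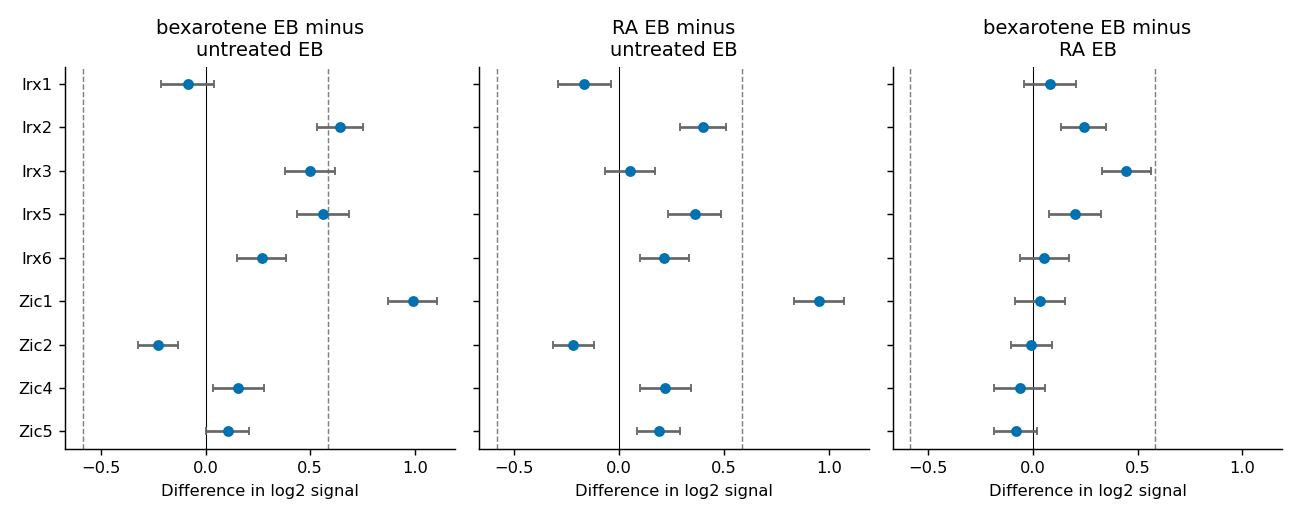
Difference in log2 signal (x axis) of each member (y axis) for bexarotene EBs minus untreated EBs, RA EBs minus untreated EBs and bexarotene EBs minus RA EBs. Bars are the spread on either side, the robust SD between the bexarotene and RA arrays at that signal, and dashed lines mark 1.5-fold. Zic1 is past the line with both ligands (0.99 and 0.95), Irx2 with bexarotene (0.64), and no member is past it between the ligands.

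Directly compared, the bexarotene and RA arrays had 0 of 9 members past 1.5-fold in either direction, where 0.196% of all genes were higher with bexarotene and 0.296% lower. All 5 Irx genes were nominally higher with bexarotene, by 0.05 to 0.45, and the Zic genes lay between -0.08 and 0.03. The Irx differences exceeded the spread for Irx3 (3.78 times), Irx2 (2.22 times) and Irx5 (1.60 times) but not for Irx1 and Irx6. Medians were 0.20 for Irx, -0.04 for Zic and -0.01 for all genes. Whether the families differ was not tested, since the genes of a cluster are not independent and each ligand has 1 array at its own dose.

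Most members were higher in EBs than in ES cells. In untreated EBs 6 of 9 members were past 1.5-fold higher than in ES cells and 0 lower, against 11.0% and 8.52% of all genes. Zic1 led at 3.47-fold, followed by Irx5 at 3.08-fold, Zic2 at 3.01-fold and Irx3 at 2.28-fold, with Irx1 at 1.77-fold and Irx2 at 1.74-fold. Irx6, Zic4 and Zic5 differed from ES cells by -0.02, 0.07 and -0.06 on the log2 scale. With bexarotene and with RA the count was also 6 of 9 higher and 0 lower, where 10.2% of all genes were higher and 9.69% lower with bexarotene, and 10.5% and 9.19% with RA. It was the same 6 genes each time. The median difference of the members from ES cells was 1.36 in bexarotene EBs, 1.20 in RA EBs and 0.82 in untreated EBs, beside -0.03, -0.02 and -0.04 for all genes. These comparisons share the ES cell array.

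**Figure D4:**
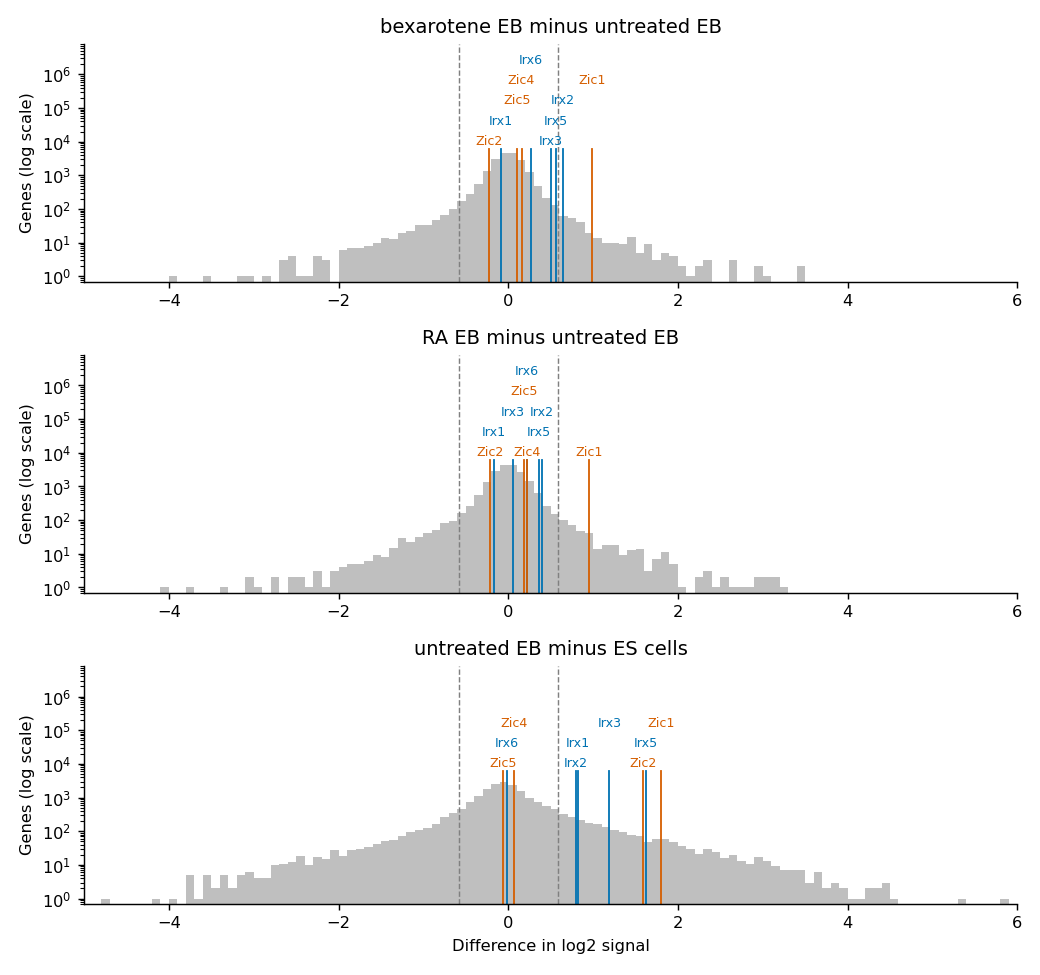
Number of genes (y axis, log scale) by difference in log2 signal (x axis) for bexarotene EBs minus untreated EBs, RA EBs minus untreated EBs and untreated EBs minus ES cells, over 19938 genes. Lines mark Irx genes (blue) and Zic genes (orange), and dashed lines mark 1.5-fold. Zic1 lies out to the right in all 3 panels, at 0.99, 0.95 and 1.80, and Zic5 near 0.

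The genes next to the members were read in the same way. Taking the nearest 2 measured coding genes on each side gives 16 neighbours. None of the 16 was past 1.5-fold with bexarotene, their median being -0.12. With RA 0 were higher and 1 lower, Mmp2, a matrix metalloproteinase gene beside Irx6, at -0.78. Among all genes 1.48% were higher and 2.15% lower with bexarotene, and 2.07% and 2.22% with RA. Irx4, the gene next to Irx2, which is best known from the heart ventricle, had the highest value of the 16 with bexarotene. It read 7.15 in bexarotene EBs, 6.88 in RA EBs, 6.67 in untreated EBs and 6.53 in ES cells, in the order of Irx2, and differed from untreated EBs by 0.48 with bexarotene and 0.20 with RA. Fto, the gene beside Irx3, differed by 0.02 with bexarotene and 0.01 with RA. Against ES cells 3 of the 16 were past 1.5-fold higher in untreated EBs and 0 lower, beside 11.0% and 8.52% of all genes. These were Rpgrip1l, Mmp2 (1.34) and Lpcat2, all of the chromosome 8 cluster. With bexarotene 2 were higher than in ES cells, Mmp2 (0.84) and Irx4 (0.62), and with RA 2, Rpgrip1l (0.68) and Adamts7 (0.59). With each ligand 1 was lower, Ggact near Zic2, at -0.76. Among all genes 10.2% were higher and 9.69% lower than in ES cells with bexarotene, and 10.5% and 9.19% with RA. The neighbour counts with the ligands lie near these shares.

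**Figure D5:**
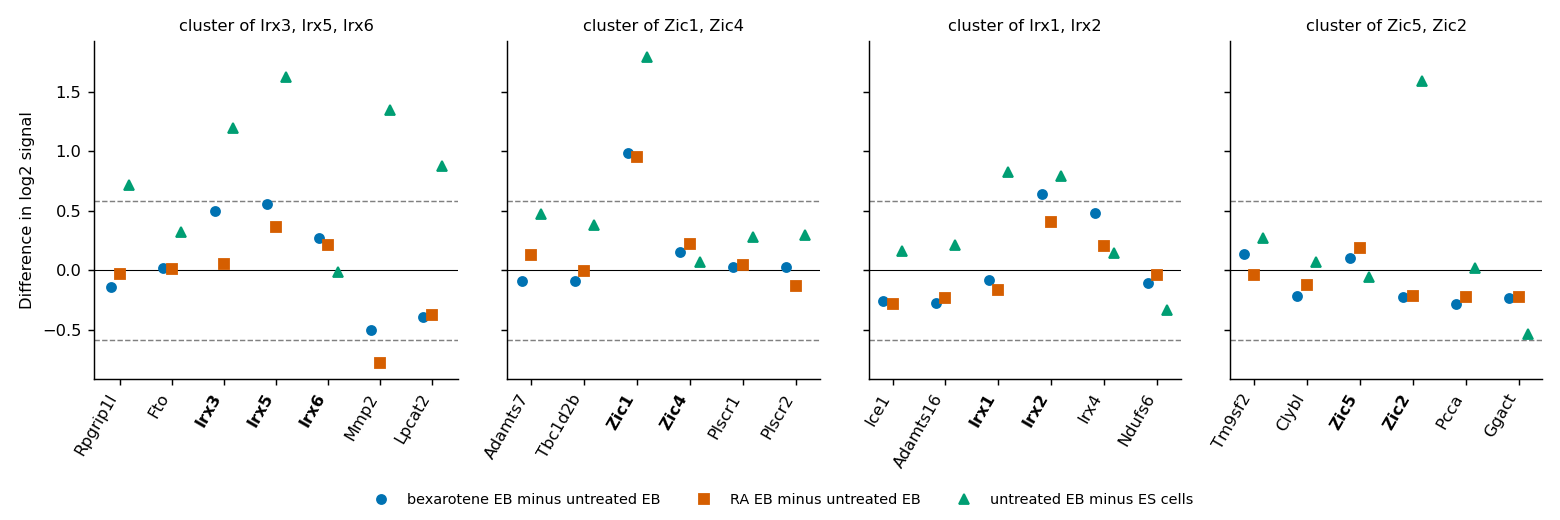
Difference in log2 signal (y axis) of the members (bold names) and of the nearest 2 measured coding genes on each side, in gene order (x axis), for each of 4 clusters. Circles are bexarotene EBs minus untreated EBs, squares RA EBs minus untreated EBs, triangles untreated EBs minus ES cells, and dashed lines mark 1.5-fold. Zic1 stands above its neighbours in every comparison, while Zic4 beside it lies between 0.07 and 0.22.

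Relatives of both families were counted in the same way. Outside the Irx family 11 TALE homeobox genes were measured, of which 2 lay above 1.5-fold with bexarotene and 2 with RA, and 0 were lower, with medians of 0.01 and 0.10, where 1.48% of all genes were higher with bexarotene and 2.07% with RA. These were Meis1 (2.01 with bexarotene and 1.89 with RA on the log2 scale) and Meis2 (1.27 and 1.08), which encode partners of Hox proteins. Of 6 Gli and Glis genes, the zinc finger relatives of Zic, 0 were higher and 1 lower with each ligand, where 2.15% of all genes were lower with bexarotene and 2.22% with RA. This was Gli1, a target of Hedgehog signalling, at -0.63 with bexarotene and -0.61 with RA.

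Genes that share territories with the members were counted in lists that were drawn up with earlier results of these data known. Beside these counts, 1.48% of all genes were higher and 2.15% lower with bexarotene, and 2.07% and 2.22% with RA. Of 12 genes of the dorsal neural tube, 4 were past 1.5-fold higher and 0 lower with bexarotene, and 2 higher and 1 lower with RA. Pax3, a regulator of dorsal neural tube, neural crest and muscle progenitors, was at 0.999 with bexarotene and 0.60 with RA, and Olig3 of the dorsal progenitors at 0.96 and 0.94, while Wnt1 was at -0.51 and -0.91. Of 11 genes of the intermediate and ventral progenitor code, 2 were higher and 5 lower with bexarotene, and 3 higher and 4 lower with RA. Among them Dbx1, of interneuron progenitors, was higher (1.62 with bexarotene and 1.70 with RA), and Shh, the ventral signal (-2.19 and -1.97), and Nkx2-9, of the ventral tube (-1.60 and -1.75), were lower. Of 16 forebrain and midbrain genes, 0 were higher and 13 lower with bexarotene, and 1 higher and 10 lower with RA. Six3 had log2 signals of 6.35 in bexarotene EBs, 6.65 in RA EBs, 8.90 in untreated EBs and 6.45 in ES cells, with the untreated array alone high, where Zic1 was high on the ligand arrays instead.

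Some markers of neural cells also passed the threshold. Relative to untreated EBs, 1.48% of all genes were higher and 2.15% lower with bexarotene, and 2.07% and 2.22% with RA. Of 11 neural progenitor genes, 3 passed 1.5-fold upward with bexarotene and 4 with RA, and 0 downward, with medians of 0.20 and 0.26. The mean log2 signal of the list was 10.08 in bexarotene EBs, 10.21 in RA EBs, 9.55 in untreated EBs and 8.20 in ES cells, and its difference with bexarotene rests mostly on Fabp7 (2.65), Nes (1.17) and Hes5 (0.79). Of 6 neuron markers 4 were higher with each ligand and 0 lower, with means of 8.46 in bexarotene EBs, 9.04 in RA EBs, 7.56 in untreated EBs and 7.47 in ES cells. Between bexarotene and RA, 0 of the 11 neural progenitor genes passed the threshold, with a median of -0.08. Of the 6 neuron markers 2 were lower with bexarotene than with RA and 0 higher, with a median of -0.53. In that comparison 0.196% of all genes were higher with bexarotene and 0.296% lower. The means of 7 primitive streak and mesoderm markers were 6.97, 6.80, 7.58 and 6.85 on the bexarotene, RA, untreated and ES cell arrays. Of 8 pluripotency markers 0 were past 1.5-fold with bexarotene and 5 were higher with RA, relative to untreated EBs. Of 11 proneural and early neuron factors 9 were higher and 0 lower with each ligand. Of 7 retinoid response genes 3 were higher and 0 lower with each, with medians of 0.27 with bexarotene and 0.06 with RA. With RA their differences from untreated EBs ran from -0.38 (Rarb) to 2.63 (Hoxb1). Directly compared, 3 of these 7 were higher with bexarotene than with RA and 0 lower, against 0.196% and 0.296% of all genes. Relative to untreated EBs, 3 of 6 cardiomyocyte markers were lower and 0 higher with each ligand. Of 7 markers of extraembryonic endoderm 0 were past the threshold either way. In the EBs none of the neural progenitor, neuron or pluripotency markers lay below the lower quartile of its array. The part of these cell types in the Irx and Zic differences was not tested.

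By the distance between mean-centred profiles over the 4 arrays, few genes lay near the members that differed most. The distance was not scaled by the range over the arrays, which was 2.78 for Zic1 and 0.19 for Zic5. A low count therefore does not mark a profile as unusual. Within a distance of 0.2 lay 2 of 19937 other genes for Zic1, 6 for Irx3, 11 for Irx5 and 13 for Irx2. It was 74 for Zic2, 484 for Irx1 and 2323 or more for the nearly level Irx6, Zic4 and Zic5, for which likeness is therefore of little meaning. Nearest to Zic1 were Sdk2 (distance 0.14), Zfp9 (0.15) and Igdcc3 (0.23), and nearest to Irx2 were Zadh2 (0.06), Cyp26c1 (0.09), an enzyme that degrades RA, and Msl3 (0.10). Irx5 was closest to F3, Fmo1 and Efnb3, each at 0.08, and Irx3 to Fgf10 (0.16), Pitx1 (0.17) and Gas1 (0.18). For Zic2 the nearest were Plagl2 (0.02), Maf (0.04) and Lin28b (0.05). Over 4 arrays such likeness is a description of these profiles.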

How the data were processed

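RNA of bexarotene, RA and untreated EBs and of ES cells had been hybridised to Affymetrix arrays, 1 per condition. The deposited values are log2 signals of probe sets, computed by the authors from all 4 arrays with RMA in Affymetrix Expression Console according to the article and with GCRMA according to the submitters' processing notes. Of 35556 probe sets, the platform annotation gives 1 symbol for 21789, several for 1621 and none for 12146. Only those with 1 symbol were used, and a gene stands by the probe set with the highest mean over the 4 arrays. Differences of log2 signals were called past 1.5-fold, without a test, since no condition has a replicate. The number of arrays limits the precision. The spread is the robust SD of bexarotene minus RA in 20 bins of signal. Calculations used Python 3.11.15, pandas 2.3.3 and statsmodels 0.14.6, and the procedure was tested on simulated data.

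The members and gene lists were chosen with earlier results of these data known. Named in the text are all members, the 3 genes nearest to a member in profile (gene models and small RNAs left out), the 2 measured coding genes on each side of a cluster by RefSeq order, and up to 4 genes of a list. Gene order and promoters are of GRCm38.p6. The build of the array annotation is not given in the sources used here, so the only coordinates printed are those of the promoters. The alternatives were a 2-fold threshold, quantile normalization, a floor at the 25th percentile, loess (span 0.3) to the mean array, dropping probe sets that are under the median on both arrays, and the mean probe set. The probe set of the same chromosome was added after the data were examined.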

Additional observations from a re-analysis of the deposited data

How the results depend on the processing

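At a 2-fold threshold the count of members past it was 0 with bexarotene and 0 with RA, relative to untreated EBs, since Zic1 had log2 differences of 0.99 and 0.95. It was 4 of 9 in untreated EBs and 5 of 9 with each ligand relative to ES cells. Quantile normalization and loess gave 3 members with bexarotene in place of 2, the addition being Irx5, and changed no other count. Shares of all genes were computed only at 1.5-fold on the deposited values. The counts at 2-fold and after quantile normalization or loess therefore have no share beside them. A floor at the 25th percentile, the mean of the probe sets and leaving out dim probe sets changed no count of members, but they had little room to do so. The floor altered no member's value, because all lay above it. The mean concerns only Zic4 and Zic5, which have 2 probe sets each. Leaving out dim probe sets removed Irx6 and Zic4, which were past 1.5-fold in no comparison. Single differences moved by -0.10 to 0.07 under quantile normalization and by -0.05 to 0.07 under loess. The mean of the probe sets, and the probe set that lies among genes of the gene's own chromosome, moved Zic5 by more than the spread in 2 and 4 of 6 comparisons. No called difference changed sign under any of these settings. No paired analysis was possible because each condition has 1 array. The arrays carry no replicate, so the variation between cultures is not known for any value.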
